A study of Mus musculus with 10 samples.

Results

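The comparison described here sets mRNA recovered from polyribosomes against total cytoplasmic RNA in serum-starved and serum-treated mouse embryonic fibroblasts. The members were taken from the array titles: 4 arrays of polyribosome-associated mRNA and 2 of cytoplasmic RNA, 6 of the 10 arrays in the series. All cultures were primary fibroblasts of e14.5 embryos with the genotype C57/BLACK6, ATF1 +/-, so the controls carry the disrupted Atf1 allele too. Every culture was held for 48 h in 1% dialyzed serum. The starved groups then had 2 h with 1% serum and the serum-treated groups 2 h with 10% serum. Each serum state had 2 polyribosome arrays (replicates 1 and 2) and 1 cytoplasmic array. The cultures for polyribosomes received cycloheximide at 100 ug/ml for 30 min before lysis, and those for cytoplasmic RNA did not. Polyribosomes were separated on sucrose gradients of 15 to 50%, the fractions with 2 or more ribosomes per mRNA were kept, and matching fractions of several preparations were combined before hybridization. The replicate 2 polyribosome cultures of both serum states had also been given 4-thiouridine at 200 uM. The RNA pool (polyribosome or cytoplasmic) therefore cannot be told apart from cycloheximide, the gradient and the combining of preparations. Because preparations were combined, the spread between arrays may in part be technical, and p-values measure only that spread.

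An mRNA that is being translated carries several ribosomes and sediments in the heavy part of a gradient, whereas an mRNA held by repressors or by inhibitory upstream reading frames carries none or 1 and stays in the light part. Total cytoplasmic RNA contains both kinds. Stress-response transcription factors such as Atf4, mRNAs with a terminal oligopyrimidine tract at their 5′ end (TOP mRNAs, which code for ribosomal proteins and translation factors) and the unstable mRNAs of the immediate early response are the textbook examples of genes controlled after transcription in growth-stimulated fibroblasts.

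The measured quantity was the hybridization intensity of a probe set, a group of short oligonucleotides that reports 1 transcript or, in some cases, several. It is given below as a level, log2 of the intensity plus a pseudocount of 2.2 after quantile normalization of the 6 arrays, and a difference is always polyribosome minus cytoplasmic on that scale. The deposited median intensity was 19.1 and 19.2 on the cytoplasmic arrays and between 45.3 and 54.25 on the polyribosome arrays. The share of ordinary probe sets brighter than the bacterial and yeast controls was 64.7% and 56.3% on the cytoplasmic arrays and between 68.0% and 73.5% on the polyribosome arrays. Without scaling, the median of all differences was therefore 1.28, and with scaling to the spiked hybridization controls it was -0.30. All differences below are relative to a typical mRNA of the same pool, and say nothing about the amount of RNA per cell. In bulk RNA, fewer cells of a type and less RNA per cell cannot be told apart. The ratio of the 3′ to the 5′ Gapdh control probe sets, a measure of how much of the transcript's 5′ part was labelled, was 47.0 on the starved and 28.4 on the serum-treated cytoplasmic array, 14.4 and 20.9 on the replicate 1 polyribosome arrays and 6.24 and 6.11 on those of replicate 2. It moves with the RNA pool, and its part in the differences was not tested. The Actb ratio overlapped between the pools (11.9 and 16.7 against 11.5 to 21.1). Polyribosome arrays correlated with each other at r = 0.968 to 0.975 over probe sets, the 2 cytoplasmic arrays at 0.954, and arrays of different pools at 0.914 to 0.948. All 15 fibroblast markers were brighter than the controls on every array. The disrupted gene itself could not be checked, since no ordinary probe set analysed here is named for Atf1.

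Of 9316 probe sets tested, 1380 (14.8%) were higher and 1134 (12.2%) lower in polyribosome than in cytoplasmic RNA at an adjusted p below 0.05 (limma with the serum state as a factor, Benjamini-Hochberg adjustment over all probe sets). The difference exceeded 2-fold for 970 of the higher and 755 of the lower probe sets, and 4-fold for 97 and 118. In 2512 of the 2514 called probe sets, all 4 polyribosome arrays lay on the same side of the cytoplasmic array of their own serum state. The calls rest on these same arrays, so this is not separate support, and the share over all probe sets is not given here. The higher share among calls was 54.9% here, but 66.4% with median centring, 37.7% with scaling to the hybridization controls and 98.8% without scaling. The count depended on the 2 cytoplasmic arrays: 389 probe sets were called without the serum-treated and 1391 without the starved cytoplasmic array. A fit that added the 4 undertranslated arrays, with a mean for each of 6 groups, called 458. Counted with 1 probe set per gene, 15.5% of 6799 genes were higher and 13.4% lower, and the median difference was -0.01. These shares are the background for the gene groups below where all 6 arrays were used. With a cytoplasmic array left out, calls fell over all probe sets, as given above. A smaller count in a group under such a setting therefore does not by itself show that the group's difference was lost.

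**Figure D1:**
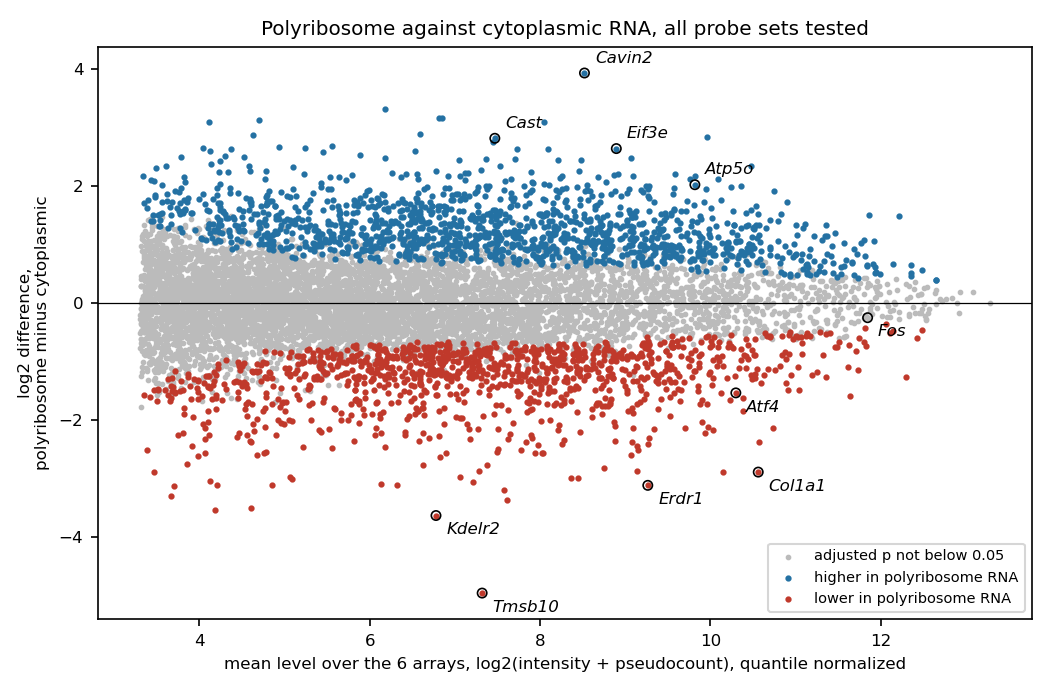
Mean level over the 6 arrays (horizontal axis, log2) against the log2 difference of polyribosome minus cytoplasmic RNA (vertical axis), 1 point for each of 9316 probe sets. The 1380 higher and 1134 lower probe sets lie at all levels, with Cavin2 at 3.93 and Tmsb10 at -4.96 as the extremes among the genes named.

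Cavin2, Vamp7, Cast and Mgat2 were among the mRNAs with the largest excess on polyribosomes. Cavin2, a coat protein of caveolae, had levels of 6.99 (starved) and 4.81 (serum-treated) in cytoplasmic RNA, whereas the polyribosome arrays gave 10.28 and 9.98 (starved) and 9.28 and 9.78 (serum-treated). Every polyribosome value lay above both cytoplasmic ones, and the difference was 3.93 ± 0.35 (SE), 15.3-fold, with an adjusted p of 0.000389 (limma). Vamp7, a vesicle fusion protein of late endosomes, measured 4.30 and 3.63 in cytoplasmic and 7.13 to 7.48 in polyribosome RNA, a 9.94-fold difference (3.31 ± 0.23, adjusted p = 0.000222, limma), with 1 of the 2 cytoplasmic arrays above background. Cast, the inhibitor of calpain proteases, was among the tightest: 5.91 and 5.27 against 8.37 to 8.44, or 7.04-fold. Mgat2, a Golgi enzyme that builds complex N-glycans, measured 6.06 and 5.17 against 8.23 to 8.57 (6.76-fold). Bcap29, a membrane protein of the endoplasmic reticulum, was 8.52-fold higher (6.76 and 5.21 against 8.90 to 9.29), and the zinc finger gene Zfp758 6.44-fold (1 of 2 cytoplasmic arrays above background). The groups did not overlap for any of these 6 genes, but their choice as the largest called differences favours such separation. Since the 2 cytoplasmic values lay apart, the fold ran from 9.07 to 27.2 for Cavin2 and from 5.17 to 14.6 for Bcap29, without the serum-treated and without the starved cytoplasmic array. Bcap29 was not called in the fit of all 10 arrays.

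For 5 further genes among the largest increases neither cytoplasmic array was above background, so only a bound can be given. The mRNA of the endosomal sorting protein Tsg101 was at least 2.58-fold higher on polyribosomes, that of the actin-binding protein Ccdc88a at least 2.19-fold by 1 probe set (1.15, not passed, by the other), and that of the mitochondrial outer membrane protein Gdap1 at least 1.61-fold. The Wnt antagonist Frzb was at least 1.39-fold higher. The class II antigen-loading protein H2-DMb1 was at least 3.17-fold higher, but its call was lost without the serum-treated cytoplasmic array (difference 2.21, adjusted p = 0.0527, limma). Sema4b, a membrane semaphorin, was 8.96-fold higher by its brightest probe set (3.16 ± 0.31), whereas its other probe sets had differences of -0.11 and -0.54 that did not pass, so the gene's direction is uncertain.

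The largest decrease was in Tmsb10, a small protein that binds actin monomers. Its level was 10.64 and 10.62 in cytoplasmic RNA and 5.64, 5.80, 5.30 and 5.92 on the polyribosome arrays. The 4 polyribosome values lay far below both cytoplasmic ones, a 31.2-fold difference (-4.96 ± 0.25, adjusted p = 5.345e-05, limma). Col1a1, the main fibrillar collagen of fibroblasts, measured 12.46 and 12.52 against 9.52 to 9.72, which is 7.43-fold lower (-2.89 ± 0.16), and its other probe set gave -2.37. Not all fibrillar collagens shared this: the groups overlapped for Col1a2 (12.69 and 12.59 against 12.43 to 12.61) and Col3a1 (12.27 and 12.01 against 12.05 to 12.21). Col6a2, a microfibril collagen, was 9.19-fold lower and its partner Col6a1 5.73-fold. Psme3, an activator of the nuclear proteasome, measured 8.21 and 8.59 against 5.09 to 5.48 (8.69-fold). The chemokine Cxcl14 measured 7.77 and 8.63 against 4.95 to 5.24 (8.59-fold). The large RNA polymerase II subunit Polr2a was 7.96-fold lower by its brightest probe set (10.88 and 9.84 against 7.13 to 7.88) and at -1.08 by another, which passed too, and the small GTPase Rhog was 8.04-fold lower. Stk11ip, which codes for a protein that binds the kinase Stk11, was lower (6.33 and 6.23 against 2.56 to 4.11), but 1 of its 4 polyribosome values was above background, so its fold is not given. For the nuclear pore component Nup188 and the smooth-muscle cytoskeletal gene Smtn no polyribosome array was above background, and they were at least 5.39-fold and 4.20-fold lower. Prr5, a subunit of the mTORC2 kinase complex, was likewise lower (6.09 and 7.75 against 3.32 to 4.71) with 1 of 4 polyribosome arrays above background, and its call was lost without the serum-treated cytoplasmic array (-2.56, adjusted p = 0.0599, limma) and its difference was -3.78 without the starved one.

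Probe sets of a single gene did not always share a direction, which limits what can be said of single genes. Of 1290 genes with several tested probe sets, 793 (61.5%) had all differences on 1 side of 0. Among the 585 of them with any call, 139 had every probe set called and 16 were called in both directions. Kdelr2, the receptor that returns proteins to the endoplasmic reticulum, was 12.4-fold lower by 1 probe set (9.36 and 9.05 against 4.97 to 5.92) and at -0.10 by the other. Erdr1 was 8.69-fold lower by 1 probe set and higher by the other (1.12, adjusted p = 0.0125, limma). Actb, cytoplasmic beta-actin, had a difference of -0.48 ± 0.19 that did not pass by its brightest probe set (10.39 and 10.58 against 9.86 to 10.32), and -2.77 by another, which passed. Col6a1 (-2.52 and -3.06) and Eif3e (2.64 and 1.69) were concordant.

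**Figure D2:**
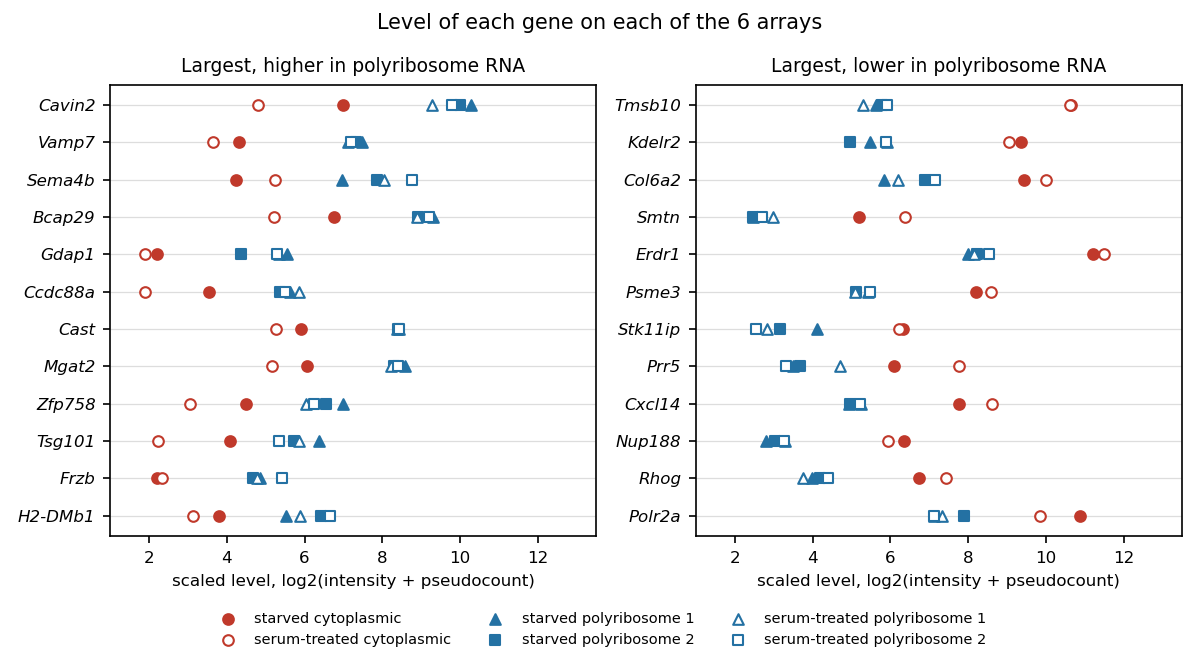
Level of each gene (horizontal axis, log2 of scaled intensity plus pseudocount) on the 2 cytoplasmic (red circles) and 4 polyribosome arrays (blue; triangles replicate 1, squares replicate 2; filled starved, open serum-treated) for the 12 largest increases and 12 largest decreases. In each row the red and blue symbols are separate, from Cavin2 (4.81 and 6.99 against 9.28 to 10.28) to Polr2a (9.84 and 10.88 against 7.13 to 7.88). The choice of the largest called differences favours such separation.

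Genes whose translation is held back by upstream open reading frames, together with other stress-response and polyamine regulators, were lower on polyribosomes for 9 of 16 members. None was higher, 13.4% of all genes were lower, and the list's median difference was -0.85. The transcription factor Cebpb had levels of 10.64 and 11.47 in cytoplasmic RNA, and the polyribosome arrays gave 6.86 and 7.67 (starved) and 9.04 and 9.13 (serum-treated). All 4 polyribosome values were below both cytoplasmic ones, and the difference was -2.88 ± 0.30, or 7.35-fold. Ddit3, the stress-induced transcription factor also called CHOP, measured 10.30 and 9.39 against 6.85 to 8.02 (5.10-fold lower). Ppp1r15a, which recruits a phosphatase to the initiation factor eIF2, measured 8.46 and 8.33 against 6.31 to 6.61 (3.90-fold lower). Atf4, the master regulator of the amino acid response, measured 11.39 and 11.26 against 9.57 to 10.15, a 2.90-fold difference (-1.54 ± 0.18, adjusted p = 0.000949, limma). Odc1, the first enzyme of polyamine synthesis, was not called: it measured 8.27 and 9.46 in cytoplasmic and 8.28 to 9.15 in polyribosome RNA, and the groups overlapped (-0.16 ± 0.21). When the serum-treated cytoplasmic array was left out, 5 of the 16 were lower and 0 higher, and the list's median was between -0.95 and -0.58 over 23 other settings, relative to all probe sets.

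Of 25 immediate early regulators of transcription and mRNA decay, 1 was higher and 11 were lower on polyribosomes, with a median of -0.61. Zfp36, which promotes the decay of AU-rich mRNAs, measured 12.14 and 12.17 against 9.33 to 10.53 (5.21-fold lower). Fosl1, a Fos family member, measured 7.54 and 9.50 against 5.78 to 7.07 (4.18-fold lower), and Fosb was 4.39-fold lower (-2.13 ± 0.32). Myc, the growth regulator, measured 7.94 and 8.21 against 5.60 to 7.17, which is 3.49-fold lower. Junb measured 8.08 and 9.23 against 6.76 to 7.91 (2.39-fold lower). Fos and Egr1, by contrast, were not called. Fos measured 12.12 and 11.91 in cytoplasmic and 11.70, 11.93, 11.93 and 11.49 in polyribosome RNA (-0.25 ± 0.16, adjusted p = 0.262, limma), and Egr1 12.52 and 12.43 against 11.93 to 12.57 (-0.22 ± 0.19), so that their groups overlapped. With the serum-treated cytoplasmic array left out, 4 of the 25 were lower and the calls of Fosb (-2.15) and Junb (-1.06) were lost, and without the starved one that of Myc (-1.40, adjusted p = 0.0506, limma).

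Of 18 feedback inhibitors of signalling 10 were lower and 1 was higher, with a median of -0.66. With median centring 5 were lower and 2 higher, and Dusp1 was then not called. Rhob, an unstable small GTPase, measured 10.79 and 10.47 against 7.27 to 8.29, a 7.04-fold decrease (-2.82 ± 0.28). Plk2, an early response kinase, was 2.82-fold lower, and Dusp1, a phosphatase of MAP kinases, 1.59-fold (11.84 and 12.10 against 11.10 to 11.45). Without the serum-treated cytoplasmic array 1 of the 18 was lower, and the calls of Plk2 (-1.57) and Dusp1 (-0.51) were lost. Without the starved one 5 were lower. That of Plk2 was lost without the starved cytoplasmic array too (-1.36). Among 28 secreted early response genes 7 were lower and 2 higher (median -0.26), and 0 passed without the serum-treated cytoplasmic array. Ptgs2, the inducible prostaglandin synthase, was higher on polyribosomes: 9.12 starved and 9.75 serum-treated in cytoplasmic RNA, 10.08 and 9.76 (starved) and 10.72 and 10.70 (serum-treated) in polyribosome RNA (0.88 ± 0.18, 1.84-fold). Its lowest polyribosome value barely exceeded the serum-treated cytoplasmic one, and without that array the call was lost (0.81, adjusted p = 0.116, limma). The chemokine Ccl2 measured 11.20 and 11.21 against 11.23 to 11.44 and was not called (0.12 ± 0.14). The cytokine Tgfb1, above background only on the serum-treated cytoplasmic array, was at least 3.22-fold lower.

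**Figure D3:**
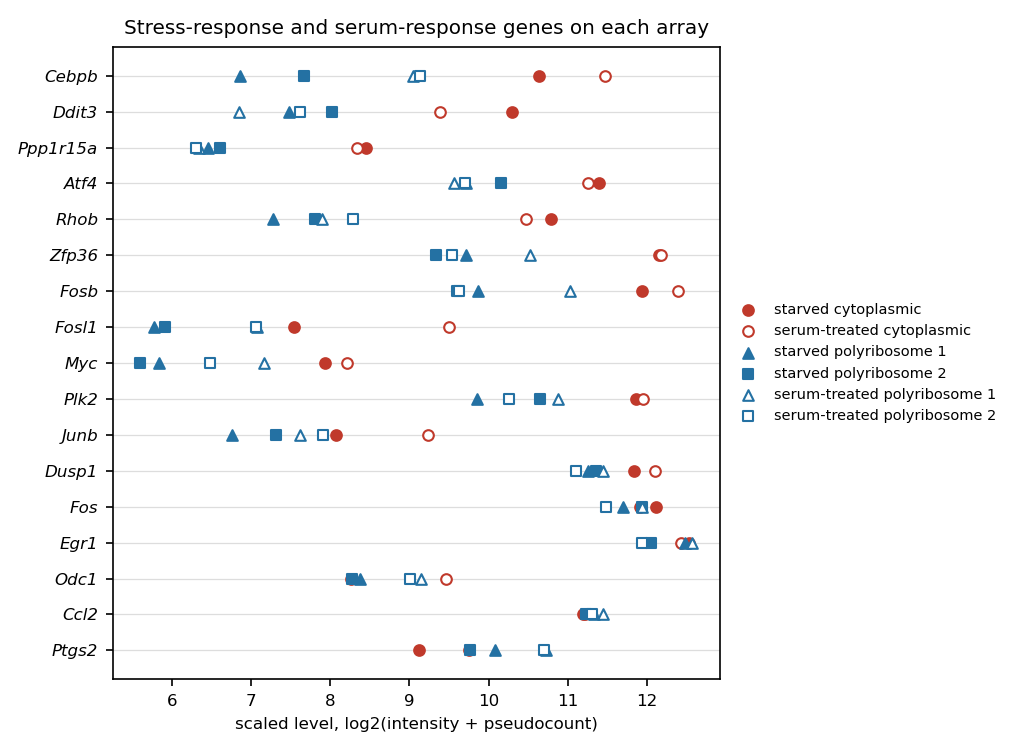
Level (horizontal axis, log2) of 17 stress-response and serum-response genes on the 2 cytoplasmic (red) and 4 polyribosome (blue) arrays. Blue symbols lie left of the red ones from Cebpb to Dusp1, overlap them for Fos, Egr1 and Odc1 and lie at or right of them for Ccl2 and Ptgs2.

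Structural genes of fibroblasts were more often lower than higher. Of 43 collagens and matrix genes, 13 were lower and 6 higher (median -0.37), and of 27 actin cytoskeleton genes and targets of the serum response factor 10 were lower and 1 higher (median -0.48). Cfl1, which severs actin filaments, measured 9.91 and 9.82 against 7.27 to 7.60 (5.33-fold lower), and Tmsb4x, the other abundant actin-monomer binder, 11.45 and 11.06 against 8.98 to 9.33 (4.10-fold lower). The counts were 5 matrix and 4 actin genes lower and 0 higher in either list without the serum-treated cytoplasmic array. Of 15 fibroblast markers, several of them collagens, 5 were lower and 1 higher. Without that array 1 fibroblast marker was lower and 0 higher. Of 13 tubulin genes 1 was lower and 0 were higher (4 lower with the replicate number as a block), and of 16 glycolysis genes 4 were lower and 2 higher (1 lower without the serum-treated cytoplasmic array, and 0 higher). The liver-type phosphofructokinase Pfkl (7.46 and 7.34 against 5.44 to 5.79) was 3.63-fold lower. Ctsb, a lysosomal protease, was 4.67-fold lower by its brightest probe set (11.40 and 11.43 against 9.03 to 9.27), and its 2 other tested probe sets gave -0.70, which passed, and 0.70, which did not. The lysosomal membrane protein Lamp2 was 2.51-fold higher (10.40 and 9.85 against 11.34 to 11.57).

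Noncoding RNAs and histone genes were also measured. Of 10 noncoding RNAs tested, 4 were lower and 0 higher (median -0.37), and 2 lower without the serum-treated cytoplasmic array. Snhg6, a host transcript of small nucleolar RNAs, measured 10.13 and 9.76 against 7.97 to 8.36 (3.41-fold lower), and Epb41l4aos, an antisense transcript, 8.35 and 8.89 against 6.25 to 6.99 (3.84-fold lower). For Snhg6 another probe set had a difference of -0.50 that did not pass. Meg3, an imprinted noncoding RNA, measured 10.11 and 10.75 in cytoplasmic and 8.42 and 6.96 (starved) and 8.13 and 6.27 (serum-treated) in polyribosome RNA. It was lower on all 4 arrays, most on the replicate 2 ones (-2.99 ± 0.55, adjusted p = 0.00447, limma). The other Meg3 probe set gave -0.39, which did not pass, and without the serum-treated cytoplasmic array the call was lost (-2.45), against -3.58 without the starved one. Xist, not above background on either cytoplasmic array, was not called (adjusted p = 0.0758, limma). Of 4 replication-dependent histone genes 2 were lower, among them the linker histone H1f2 (11.74 and 11.22 against 9.23 to 9.44, 4.52-fold lower), whose mRNA ends without a poly(A) tail.

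Mitochondrial ribosomal proteins, respiratory chain genes and proteasome subunits had medians above 0. Of 58 mitochondrial ribosomal proteins 16 were higher and 2 lower, 49 had a difference above 0, and the median was 0.48. Mrpl16, a protein of the large mitochondrial subunit, measured 6.32 and 6.06 against 8.07 to 8.41 (4.27-fold higher). Of 53 nuclear-encoded respiratory chain genes 15 were higher and 3 lower (median 0.30). The ATP synthase subunit gene Atp5o measured 8.53 and 8.41 against 10.42 to 10.67, a 4.06-fold difference (2.02 ± 0.18, adjusted p = 0.000438, limma), and Cycs, cytochrome c, 5.87 and 5.35 against 7.41 to 7.54 (3.65-fold). For these 3 genes the groups did not overlap, which their choice among the largest called differences of each list favours. Without the serum-treated cytoplasmic array 1 mitochondrial ribosomal and 2 respiratory chain genes passed as higher and 0 as lower, and without the starved one 5 and 8 were higher and 1 of each lower, while the medians relative to all probe sets were 0.39 and 0.19 without the former.

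Of 38 proteasome subunits 17 (44.7%, against 15.5% of all genes) were higher and 6 lower, with a median of 0.49. Psmd14, the deubiquitinase of the regulatory lid, measured 8.90 and 8.49 against 10.32 to 10.40 (3.18-fold higher), and the assembly chaperone Psmd10 4.96 and 4.67 against 5.69 to 6.79 (2.94-fold higher, 1 of 2 cytoplasmic arrays above background). Psme3, described above, had the largest decrease of the list. Leaving out the serum-treated cytoplasmic array gave 2 higher and 2 lower, with a median of 0.57, and leaving out the starved one 8 and 1. Without the starved or the serum-treated polyribosome array of replicate 1 the lower count was 2 or 3. Of 15 cholesterol synthesis genes 5 were higher and 1 lower (median 0.45). Msmo1, a sterol demethylating enzyme, measured 8.39 and 8.62 against 9.56 to 10.55 (3.04-fold higher), and the sterol reductase gene Hsd17b7, above background on no cytoplasmic array, was at least 2.45-fold higher. Of the 15, 2 were higher without the serum-treated cytoplasmic array.

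**Figure D4:**
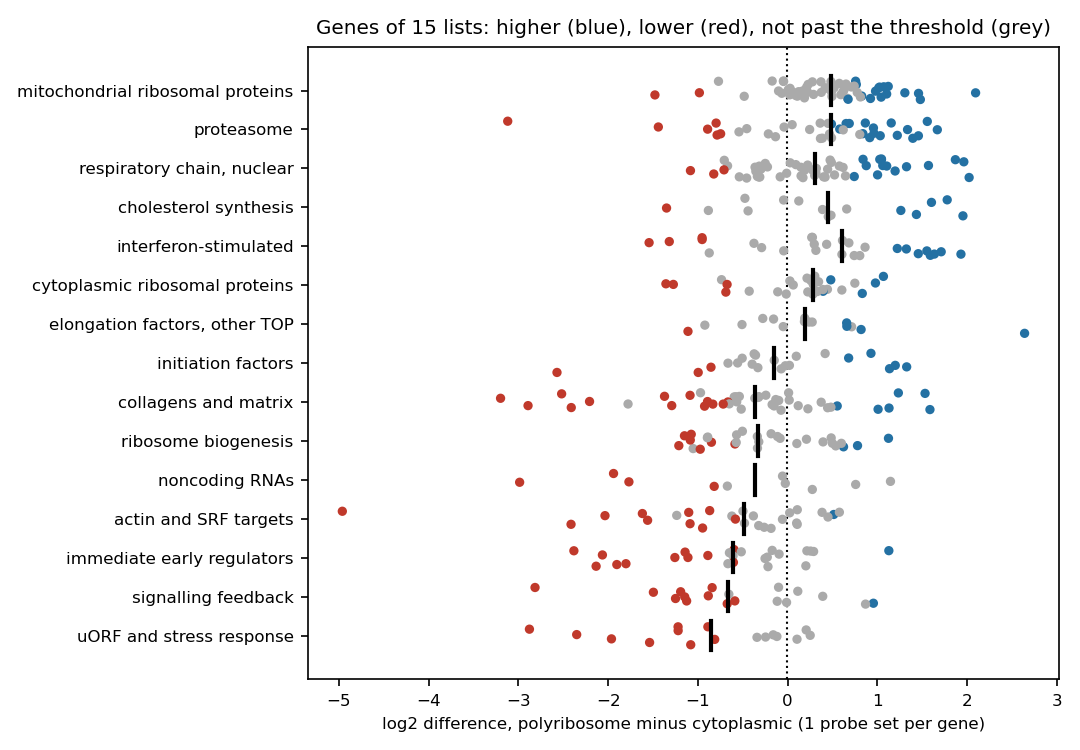
Log2 difference of polyribosome minus cytoplasmic RNA (horizontal axis) for the genes of 15 lists, 1 point per gene, blue where higher, red where lower and grey where the test was not passed; the bar is the list's median and the dotted line the median of all 6799 genes. Medians run from 0.60 for interferon-stimulated genes to -0.85 for the upstream reading frame and stress list, and every list holds genes that did not pass.

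TOP mRNAs begin with a C followed by a run of pyrimidines, through which growth signals control their loading onto ribosomes. The 30 bases around the annotated start, 15 on each side, are shown for 4 genes of the TOP lists whose RefSeq start (GRCm38.p6) carries a C and at least 4 further pyrimidines, with that run in capitals: the 2 that passed the test, in opposite directions, and the 2 with the highest level among those that did not, picked after their values were seen. Positions are chr10:111473212-111473241 (plus strand), chr3:90213634-90213663 (minus), chr17:33955651-33955680 (minus) and chr17:27635230-27635259 (minus).
Nap1l1: ggcgggctctcgggtCTTTTTTagcgccat
Rps27: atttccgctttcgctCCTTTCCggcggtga
Rps18: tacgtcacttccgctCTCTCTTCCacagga
Rps10: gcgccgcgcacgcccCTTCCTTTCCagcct
The histone chaperone gene Nap1l1, with a run of 7, was 1.76-fold higher (8.14 and 7.54 against 8.56 to 8.75), and Rps27, with a run of 7, was 1.61-fold lower (7.47 and 7.63 against 6.76 to 7.09). Rps18, with a run of 9, measured 12.55 and 12.57 against 12.31 to 12.63, and Rps10, with a run of 10, 11.63 and 11.61 against 11.67 to 12.28. Neither passed. The call of Nap1l1 was lost without either cytoplasmic array (0.53 without the serum-treated and 1.12 without the starved). It was also lost without either serum-treated polyribosome array (0.81 and 0.73), though its other probe set was higher as well (1.87). The call of Rps27 was likewise lost without either cytoplasmic array. The Rps27 call was also lost without the starved polyribosome array of replicate 1 and without the serum-treated one of replicate 2. Neither direction therefore held in every setting.

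Of 35 TOP-list genes with a RefSeq start, 8 had such a start and 27 did not, and the median differences were 0.26 and 0.19. Among all 5483 tested genes with a RefSeq start, the 164 with such a start had a median of 0.06 and the 5319 without one -0.01. The motif, searched on the transcribed strand at the annotated first base only, was present at 823 of the 32851 starts in the table (2.5%). A match or its absence describes the annotated letters, not the start used in these cells. Of 28 cytoplasmic ribosomal proteins 5 (17.9%) were higher and 4 (14.3%) lower, shares close to those of all genes (15.5% and 13.4%), with a median of 0.28. Leaving out either cytoplasmic array gave 2 higher and 1 lower, and the replicate block 3 and 3. Rps19 measured 11.19 and 11.24 against 12.10 to 12.54 (2.09-fold higher), and Rpl41, which was lower, 13.14 on both cytoplasmic arrays against 11.56 to 12.05. The value of 13.14 is the top of the normalized scale and sets the size of that difference. The difference ran from -2.24 to -1.15 over the other settings. Values as deposited and hybridization control scaling were not counted in that range unless taken relative to the median. Ribosomal protein probe sets can also bind transcripts of the many processed pseudogenes. Eef1a1, the elongation factor that delivers aminoacyl-tRNA, measured 12.95 on both cytoplasmic arrays and 13.14 on all 4 polyribosome arrays, and was not called (0.19 ± 0.09). Its polyribosome values lay at the top of the normalized scale, which limits this difference too. The missing call therefore does not show equal levels. Tpt1, a growth-regulated TOP mRNA, measured 12.72 and 12.71 against 12.31 to 12.55 and was not called (-0.28 ± 0.11, adjusted p = 0.0867, limma).

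Of 21 initiation factors 5 were higher and 3 lower, with a median of -0.15. Without the serum-treated cytoplasmic array, and likewise in the fit of all 10 arrays, 0 were higher and 1 was lower. With the starved cytoplasmic array or any polyribosome array but the starved replicate 2 left out, 3 were higher, and the replicate block gave 5 and 5. Eif4ebp2, a repressor that binds the cap-binding protein eIF4E, measured 9.63 and 9.83 against 6.95 to 7.40 (5.94-fold lower), but its other probe set gave -0.24 and did not pass. The eIF3 subunit Eif3e, which belongs to the TOP list, measured 7.76 and 6.51 against 9.50 to 10.02. It was 6.24-fold higher, with folds of 3.85 without the serum-treated and 10.5 without the starved cytoplasmic array. Of 21 tRNA synthetase genes 3 were higher and 2 lower, and with the replicate block 2 and 6. Of 29 ribosome biogenesis genes 3 were higher and 7 lower (median -0.34), and the starved cytoplasmic array left out gave 1 and 3, either replicate 1 polyribosome array left out 4 lower. Fth1, the ferritin heavy chain whose mRNA carries an iron-responsive element, measured 11.42 and 11.35 against 11.13 to 11.54 (-0.05 ± 0.16) and was not called, though another of its probe sets was lower (-1.27). Of 6 mRNAs on the iron-responsive list 2 were higher, Sdhb (1.32) and Hif1a (1.07), and 0 lower. Whether the mRNAs of Sdhb and Hif1a carry an iron-responsive element was not examined. Splicing factors were called at 9 higher and 10 lower of 38, lysosomal genes at 3 and 4 of 26, and chaperones and translocation genes of the endoplasmic reticulum at 5 and 2 of 32. The median of each of these 3 lists lay within 0.07 of 0 and changed sign between settings. Replication and mitosis genes were called at 3 higher and 1 lower of 41 (3 and 3 with the replicate block). With the replicate block lysosomal genes were at 3 and 9, with a median of -0.20 relative to all probe sets, and 9 were lower without the starved polyribosome array of replicate 2. No gene passed without the serum-treated cytoplasmic array among tRNA synthetases, ribosome biogenesis, iron-responsive, endoplasmic reticulum and replication genes, while 0 splicing factors were higher and 1 lower, and 1 lysosomal gene passed in each direction. Without the starved one splicing factors were at 5 and 4, and endoplasmic reticulum genes at 1 and 1.

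Interferon-stimulated genes and macrophage markers both had medians above 0. Of 27 interferon-stimulated genes 8 were higher and 4 lower (median 0.60); Iigp1, an interferon-induced GTPase, was higher by both probe sets; the brighter one was above background on no cytoplasmic array and the other gave 1.29 (adjusted p = 0.0165, limma). In the fit of all 10 arrays 0 genes of this list passed. Of 15 macrophage markers tested 4 were higher and 0 lower (median 0.70). Among the 4, Laptm5 (1.31) and Msr1 (1.66) were called by their brightest probe set only. Their other tested probe sets gave -0.225 and 0.04 and did not pass. Cd53, a leukocyte tetraspanin, measured 5.21 and 4.65 in cytoplasmic RNA, and 5.66 and 6.27 (starved) and 7.48 and 7.72 (serum-treated) in polyribosome RNA (3.61-fold higher, 1 of 2 cytoplasmic arrays above background). Of the 15 macrophage markers tested, 12 had a difference above 0, and the lowest difference was -0.63. The groups overlapped for Csf1r (5.64 and 6.81 against 4.58 to 6.55) and Cd14 (8.08 and 8.98 against 7.49 to 9.11). The summed level of the 19 macrophage markers on the array (quantile-normalized intensity) was 915.8 (starved) and 2204 (serum-treated) in cytoplasmic RNA, and 1179 and 1213 (starved) and 3312 and 4315 (serum-treated) in polyribosome RNA. This sum moved with both the pool and the serum state. It is weighted towards the brightest markers, such as Ctss (7.55 and 9.50 against 8.60 to 10.48), and does not show that each marker moved. Of these 19, 12 were above background on each cytoplasmic and 15 to 17 on each polyribosome array. Ptprc (CD45) and Fcer1g were above background on neither cytoplasmic array, and Aif1 and Itgam on none of the 6. The part of macrophages in the pool differences was not tested. Without the serum-treated cytoplasmic array 1 macrophage marker passed (Cd53 had 0.77 and did not), the list's median was 0.14, and 3 interferon-stimulated genes were higher and 1 lower. Without the starved one 2 macrophage markers and 5 interferon-stimulated genes were higher (Cd53 then had 2.97). Of the other marker lists, 0 of 7 endothelial and 0 of 6 erythroid markers passed, 1 epithelial marker of 7 and 1 muscle marker of 8 passed in each direction, and of 5 neural markers 1 was lower and 0 higher.

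The pool difference was also estimated within each serum state, where 1 cytoplasmic array was set against 2 polyribosome arrays and was assumed to vary like them. Counts are from the fit without a block unless stated. A block for the replicate number takes up a further residual degree of freedom. Since both cytoplasmic arrays are number 1, it in effect sets them against polyribosome levels of that number. Counts with and without the block are therefore not like for like. In starved cells 178 probe sets (1.91%) were higher and 176 (1.89%) lower, and in serum-treated cells 833 (8.94%) were higher and 530 (5.69%) lower. The replicate number, which marks the 4-thiouridine cultures, as a block raised the starved count from 354 to 1915 and the serum-treated count from 1363 to 2860. With either serum-treated polyribosome array left out, both counts were 0. Of the starved calls 282 were also called after serum, 79.7% of the starved and 20.7% of the serum-treated list. Over all probe sets, which are not independent replicates, the differences in the 2 states correlated at r = 0.686 and had the same sign for 75.2%, although the 2 estimates share no array. Tmsb10 fell by 4.92 in starved and 5.0 in serum-treated cells, and Col1a1 by 2.89 and 2.90. Cavin2 was higher by 3.14 and 4.72, and Kdelr2 lower, at -4.13 and -3.14. Tlcd4, which had the largest fitted increase in starved cells, was above background on neither cytoplasmic array, and the bound over both states is at least 1.45-fold. The interaction, which tests whether the pool difference depended on serum, was called for 0% of probe sets (limma; 551 at an unadjusted p below 0.05, lowest adjusted p 0.789). That test rests on 2 residual degrees of freedom and 1 cytoplasmic array per state, so a p that misses the threshold does not show that the 2 states were alike.

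**Figure D5:**
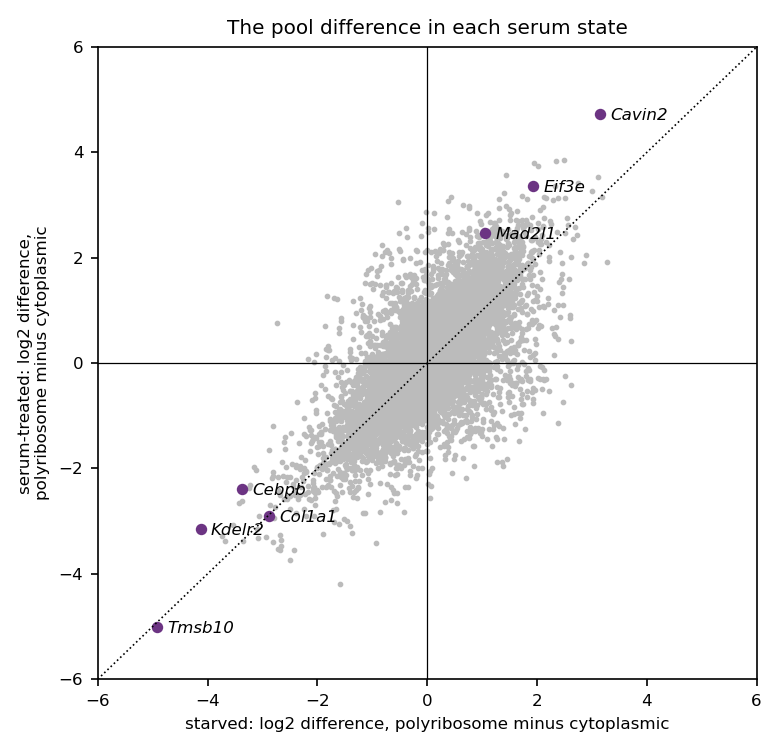
Difference of polyribosome minus cytoplasmic RNA in starved (horizontal axis, log2) against serum-treated cells (vertical axis, log2) for 9316 probe sets, with equality dotted. Tmsb10 (-4.92, -5.0) and Col1a1 (-2.89, -2.90) lie on the line; Mad2l1 (1.05, 2.48) and Cavin2 (3.14, 4.72) lie above it, and no probe set passed the interaction test.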

How the data were processed

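The deposited values were linear hybridization intensities of 12488 probe sets on a short-oligonucleotide array, per the series table; how the authors summarised probes and scaled arrays is not given in the sources used here. Per the labels' protocols, RNA was linearly amplified and biotin-labelled. The 66 control probe sets were left out, and 10833 of the 12422 ordinary ones had 1 gene symbol, 396 several and 1193 none. Symbols were checked through Entrez identifiers in RefSeq (10817 matched, 0 changed). Intensities of the 6 arrays were quantile normalized and taken as log2 with a pseudocount of 2.2 (their 10th percentile). The dimmest 25% of probe sets by mean level were removed. Differences were tested with limma 3.58.1 in R 4.3.3 (lmFit, eBayes with trend, two-sided, 3 residual degrees of freedom), with a threshold of 0.05 after Benjamini-Hochberg adjustment. Each array's background was its brightest value among 19 control probe sets for bacterial and yeast RNA; where no array of a pool exceeded it, the fold is a bound. For each gene the probe set with the highest mean was used in lists. The members of the comparison and all lists were chosen with earlier results of these data known.

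Named genes were the 12 largest called differences in each direction with all 4 polyribosome arrays on 1 side, up to 3 called genes of each list, a fixed set (among them Fos, Atf4 and Col1a1), and the 3 largest within each serum state; other genes named were chosen after their values were seen. Same-numbered polyribosome arrays deviated together from their group means (r = 0.287 over probe sets), and number 2 marks the 4-thiouridine cultures per the labels, so the number was taken to pair them. The reported fits hold no term for it; a fit with the number as a block was run as an alternative. The cytoplasmic arrays have number 1 alone, so the block in effect sets them against polyribosome levels of that number. The scripts were tested on simulated data with known changes before use.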

Additional observations from a re-analysis of the deposited data

How the results depend on the processing

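With 2 cytoplasmic arrays, a single one decides many calls. Leaving out 1 array at a time gave 389 to 2581 called probe sets over both serum states (2514 with all 6), 0 to 175 in starved cells (354) and 0 to 1599 in serum-treated cells (1363). Values as deposited, without scaling, gave 7188, 5535 and 4968 calls, because the median of all differences was then 1.28, 1.34 and 1.25; relative to that median 2251 were called over both states. Median centring gave 221 in starved cells. A fit of all 10 arrays with 6 group means gave 458, 26 and 92. With the replicate block the counts were 2518 (2101 of them among the 2514), 1915 and 2860, and the interaction stayed at 0. The interaction had 0 calls under each alternative run. The other counts over both states lay within 1.5 times of 2514, and scaling to the hybridization controls, with a median of -0.30, gave 2004. Of 126 named genes 117 were called. Values as deposited and hybridization control scaling, which shift all differences, were not counted here unless taken relative to the median. Settings whose filter removed the probe set were not counted either. In the 2625 remaining combinations of called gene and alternative, the difference reversed in 0 and was no longer called in 218. In every alternative so counted 47 genes were called. Without the serum-treated cytoplasmic array 57 lost the call, without the starved one 19. The median difference between genes with and without a C and 4 pyrimidines at the start was 0.07, 0.06 with median centring and 0.14 above background on all arrays. Protein length and hydrophobic stretches were not run. Dim probe sets limit the folds: 156 higher probe sets were above background on no cytoplasmic array and 17 lower ones on no polyribosome array.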

Other observations

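Of 77 zinc finger (Zfp) genes tested 14 (18.2%) were higher and 12 (15.6%) lower in polyribosome RNA, near the 15.5% and 13.4% of all genes, with a median of -0.09. Of 124 solute carriers 9 (7.26%) were higher and 16 (12.9%) lower, with a median of -0.17. Without the serum-treated cytoplasmic array the counts were 2 and 1 for Zfp genes and 1 and 4 for solute carriers, and without the starved one 12 and 5, and 5 and 10. Without the serum-treated polyribosome array of replicate 1, 7 Zfp genes were lower. Slc39a1, a zinc importer, measured 7.48 and 8.16 on the cytoplasmic arrays and 4.90 to 5.88 on the polyribosome arrays, 5.54-fold lower, but its other probe set gave 0.07 and did not pass. Slc25a39, a mitochondrial carrier, measured 10.22 and 9.72 against 8.20 to 8.31 and was 3.30-fold lower.

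Of 15 targets of p53 5 were higher and 3 lower, with a median of -0.45; without the serum-treated cytoplasmic array 0 were higher and 1 lower, and without the starved one 3 and 1. Ccng1, a cyclin induced by p53, measured 9.23 and 7.89 against 10.10 to 10.41 and was 3.34-fold higher; without the serum-treated cytoplasmic array its call was lost (1.14, adjusted p = 0.0552, limma), and the difference was 2.37 without the starved one. Of 21 FoxO and growth-arrest genes 5 were higher and 0 lower, and 0 were higher without the serum-treated and 3 without the starved cytoplasmic array. Among genes in 5 bins of promoter GC content, the median difference was 0.06, -0.03, -0.03, -0.01 and -0.01 from the lowest to the highest GC, a description across genes.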
